A study of Mus musculus with 18 samples.

Results

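Cells of the mouse line labelled HL-1, transfected in high glucose with the negative control of a miR-200a-3p mimic, were compared with untransfected cells in high glucose. The comparison used 6 of the 18 libraries of the study, 3 in each group, and covered every gene of the deposited count table. Of 29112 genes listed, 15074 passed the filter on low counts and were tested. The 14038 genes left out held 0.0309% of the reads of the 6 libraries, and 4810 of them had no read there.

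Both groups carried the treatment label high glucose treated. The untransfected group, called high glucose below, had the genotype label control and no duplex in its description. The mimic control group had the genotype label negative control, and its cells were harvested 48 h after transfection with the HiPerFect reagent. The sources used here do not give the glucose concentration or its duration, or say if untransfected cells saw the reagent alone. The duplex, the reagent and the handling differ together between the groups and cannot be told apart. HL-1 is a single line derived from a mouse atrial tumour, known for keeping features of heart muscle cells in culture. Nothing in the labels states that replicates were grown as separate cultures. The p-values therefore set each difference only against the spread between libraries within groups, estimated over all 18 libraries. That spread may be technical.

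A microRNA mimic is a short double-stranded RNA that enters the Argonaute silencing complex in place of a natural microRNA. Its negative control is a duplex of the same kind with no intended target, and the effect of a mimic is usually read against it. A comparison of that control with untransfected cells shows how far the baseline of such a study stands from cells that received no duplex.

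The 6 libraries held 34242930 to 37928790 reads. Across genes, log2 levels correlated at 0.995 between libraries of a group and at 0.906 to 0.908 between the groups. Rn18s, the 18S ribosomal RNA, took 0.915% to 1.23% of the reads in high glucose and 0.874% to 1.04% in the mimic control. Genes of the mitochondrial genome took 0.975% to 1.24% and 0.67% to 0.809%. Levels below are counts scaled to library size (CPM) after TMM scaling. They are given for replicates 1, 2 and 3 in turn or as a mean ± SD (n = 3). Log2 changes are mimic control minus high glucose. The ± after a log2 change is its absolute value divided by the square root of the F statistic of edgeR's quasi-likelihood test. It is an approximate SE and can be too small for genes with few reads.

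Markers of the labelled cell type were low in both groups. Nppa, the atrial natriuretic peptide gene for which HL-1 cells are known, had 1 read over the 3 high glucose libraries and 0 over the 3 mimic control libraries. Myh6, the adult cardiac myosin heavy chain, had 14 and 12 reads and was too low to test, and Myh7, the other cardiac heavy chain, had 26 and 18 and was not called. Of 13 cardiomyocyte markers in the table, 7 could be tested, and their sum over all 13 ran from 51.7 to 68.5 CPM in the untransfected libraries and from 33.4 to 35.1 CPM in the mimic control. Of those tested, 2 were called higher, 3 lower and 2 not called. The cardiac transcription factor Gata4 rose by 0.54 on the log2 scale (adjusted p = 8.81e-06), and the cardiac troponin Tnnt2 had 44.3 ± 6.37 CPM in high glucose and 16.3 ± 1.07 CPM in the mimic control.

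Markers of other cell types moved too. The 10 fibroblast markers summed to 10550.0 to 11990.0 CPM in the untransfected libraries and 1175 to 1198 CPM in the mimic control, and 7 of 9 tested were called lower. The 10 skeletal muscle markers summed to 4777 to 6059 and 1437 to 1500.0 CPM, with all 9 tested called lower. The 12 macrophage markers summed to 51.7 to 55.4 and 66.2 to 71.0 CPM, with 9 of 11 tested not called. The 8 endothelial markers summed to 0.823 to 1.49 and 6.12 to 6.80 CPM, and none of 8 lymphocyte markers was high enough to test. In bulk RNA, fewer cells of a type and less RNA per cell cannot be told apart, and the part of a changed mix of cells in the results below was not tested.

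At an adjusted p under 0.05 in edgeR's quasi-likelihood test (Benjamini-Hochberg over the 15074 genes), 11891 genes (78.9%) were called, 5872 higher (39.0%) and 6019 lower (39.9%) in the mimic control. These shares are the background against which each group of genes is read. The median log2 change of all tested genes was 0.01. At least 2-fold, 2664 genes (17.7%) were called higher and 3290 (21.8%) lower, and at least 16-fold, 155 higher and 381 lower. The 3 libraries of one group all lay above the 3 of the other for 5997 genes (39.8%) higher and 6122 (40.6%) lower. For scale, high glucose against vehicle, with no transfection on either side, gave 3652 calls (24.2%), of which 215 (1.43%) were at least 2-fold.

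**Figure D1:**
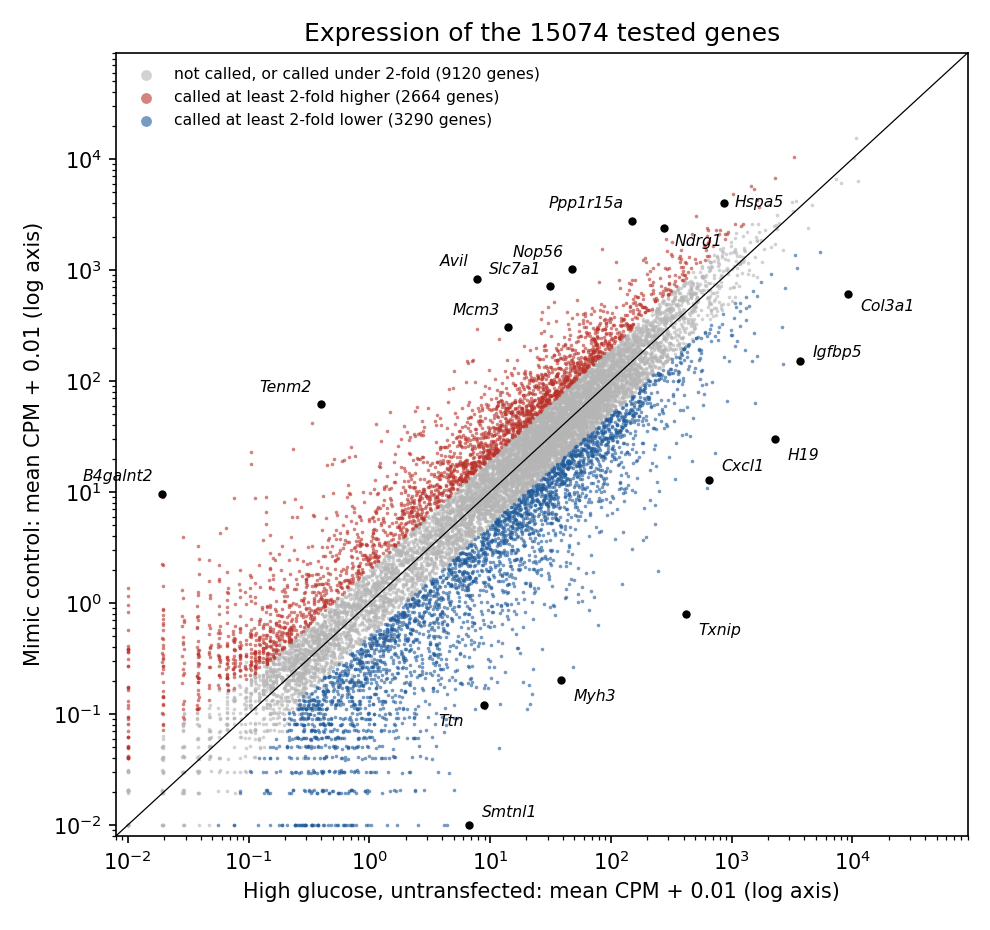
Mean CPM + 0.01 of each of the 15074 tested genes in the 3 untransfected high glucose libraries (x axis) and the 3 mimic control libraries (y axis), both on log axes, with a line at equal levels. Red points are the 2664 genes called at least 2-fold higher, blue points the 3290 called at least 2-fold lower, and black points are named genes. Txnip and Myh3 lie far below the line and Tenm2 and Avil far above it.

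Genes of DNA replication rose. The proteins they encode load and run the replicative helicase, supply nucleotides and assemble new chromatin, and many of the genes are known targets of E2F transcription factors. Of 30 tested, 28 were called higher, 27 of them at least 2-fold, and 2 lower, with a median log2 change of 2.36 against 0.01 for all genes. Mcm3, a subunit of the helicase ring (chr1:20870791-20890536, GRCm39), had 15.2, 14.3 and 12.7 CPM in high glucose and 305, 314 and 296 CPM in the mimic control. The 3 mimic control libraries all lay far above the 3 high glucose libraries. The log2 change was 4.44 ± 0.0665 (adjusted p = 3.37e-21), which is 21.6-fold. Mcm5, of the same ring, had 6.13, 7.02 and 6.63 CPM and then 142, 142 and 146 CPM, also without overlap (log2 change 4.44 ± 0.0613, adjusted p = 1.95e-21). Mcm10, which helps to activate the helicase, rose by 4.23 on the log2 scale, the uracil glycosylase Ung by 4.17, the chromatin assembly subunit Chaf1b by 3.85 and the ring subunit Mcm2 by 3.78. The 2 members that fell act at the entry to S phase. Cyclin E1 (Ccne1) fell from 17.9 ± 1.74 to 8.16 ± 0.573 CPM and the transcription factor E2f1 from 43.5 ± 1.25 to 33.2 ± 2.04 CPM. Replication-dependent histone genes, a separate list, did not rise as a whole. Of 12 tested, 5 were called higher and 4 lower, and 36 were not tested. The sum over all 48 ran from 667.5 to 679.9 CPM in high glucose and from 419.6 to 428.1 CPM in the mimic control.

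The promoters of Mcm3 and Mcm5, the members with the largest change, are shown because both hold an E2F-type motif, searched as TTTGGCGC or TTTCCCGC on both strands after the data had been seen. The windows run from 250 bases before to 50 after the RefSeq start (GRCm38.p6) along the gene's strand, chr1:20820263-20820562 on the minus strand for Mcm3 and chr8:75109259-75109558 on the plus strand for Mcm5, with each match in capitals.
Mcm3: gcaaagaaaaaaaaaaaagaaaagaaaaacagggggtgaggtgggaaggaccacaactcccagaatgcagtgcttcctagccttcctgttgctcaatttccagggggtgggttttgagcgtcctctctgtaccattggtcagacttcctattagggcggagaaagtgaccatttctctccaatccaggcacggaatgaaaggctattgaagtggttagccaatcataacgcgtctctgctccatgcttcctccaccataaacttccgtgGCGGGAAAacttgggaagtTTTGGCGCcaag
Mcm5: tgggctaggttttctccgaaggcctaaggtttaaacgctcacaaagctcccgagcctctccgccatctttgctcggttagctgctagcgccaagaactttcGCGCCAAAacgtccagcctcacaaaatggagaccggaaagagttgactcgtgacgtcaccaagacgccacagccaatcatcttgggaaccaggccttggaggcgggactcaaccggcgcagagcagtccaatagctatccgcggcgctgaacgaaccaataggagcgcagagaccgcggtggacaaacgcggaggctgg
The Mcm3 window held 2 matches and the Mcm5 window 1. Of 30 windows found for 25 genes of the list, 9 held a match (30%), against 514 of 32851 windows over all genes (1.57%). The 9 belong to Cdc6, Cdt1, E2f2, Mcm3, Mcm5, Mcm6, Mcm7, Pola1 and Rfc3. A match describes the letters and is not a measured binding site.

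Mitotic genes moved the same way. All 25 tested genes of G2 and M phase were called higher, 24 at least 2-fold, with a median of 2.09. Mki67, the proliferation antigen Ki-67, had 34.9, 40.4 and 44.4 CPM in high glucose and 214, 202 and 209 CPM in the mimic control. Every mimic control library lay above every high glucose library (log2 change 2.38 ± 0.0889, adjusted p = 1.51e-15). The spindle kinases Ttk and Aurka rose by 3.04 and 2.97, cyclin B1 (Ccnb1) by 2.79 and the survivin gene Birc5 by 2.75. Targets of p53, which restrains the cycle after DNA damage, were split, with 9 of 22 called higher, 10 lower and a median of -0.14. Among them the stress gene Sesn1 fell by 2.94 and the cycle inhibitor Cdkn1a from 278 ± 13.6 to 194 ± 5.71 CPM, while Trp53 itself rose by 1.56.

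Genes of ribosome assembly and ribosomal proteins rose as well. All 32 tested genes of nucleolar ribosome assembly and RNA polymerase I were called higher, 26 at least 2-fold, with a median of 2.19. Nop56, a core protein of the particles that methylate ribosomal RNA (chr2:130115808-130121238), had 49.3, 50.7 and 42.3 CPM in high glucose and 987, 1025 and 1044 CPM in the mimic control. The groups were 21.5-fold apart and did not overlap (log2 change 4.42 ± 0.0728, adjusted p = 9.4e-21). The pseudouridine synthase Dkc1 rose by 3.69, the helicase Ddx21 by 3.41 from 111 to 1175 CPM, and the assembly factor Rrp12 by 3.36. Of 73 cytosolic ribosomal protein genes, 72 were called higher, 25 at least 2-fold, with a median of 0.84 and a largest change of 1.52 for Rpl35. These genes took 2.66% to 2.94% of the reads in high glucose and 4.34% to 4.38% in the mimic control. Rpl29, the 1 member called lower (log2 change -0.31 ± 0.110, adjusted p = 0.0155), was not called without high glucose replicate 1 (-0.19), mimic control replicate 2 or mimic control replicate 3. Splicing factors gave 27 of 33 higher, 19 at least 2-fold, and 3 lower, led by Srsf1, a regulator of exon choice, at 3.05.

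Genes of the integrated stress response rose. In this pathway, kinases that sense amino acid shortage, unfolded proteins, heme lack or double-stranded RNA phosphorylate the initiation factor eIF2, and translation of the transcription factor ATF4 goes up. Of 27 tested ATF4 and amino acid supply genes, 25 were called higher, 21 at least 2-fold, and 1 lower, with a median of 2.21. Ppp1r15a, the phosphatase subunit that reverses eIF2 phosphorylation (chr7:45172340-45175692), had 154, 155 and 138 CPM in high glucose and 2806, 2732 and 2796 CPM in the mimic control. No library overlapped, and the change was 18.6-fold (log2 4.22 ± 0.0626, adjusted p = 3.37e-21). Ddit3, the stress factor CHOP, had 89.7, 80.2 and 82.0 CPM and then 1546, 1553 and 1539.9 CPM, again without overlap (log2 change 4.20 ± 0.0670, adjusted p = 7.28e-21). The arginine transporter Slc7a1 led the list at 4.51, from 31.3 to 711 CPM, followed by cystathionine gamma-lyase (Cth) at 4.43 and the pseudokinase Trib3 at 4.33. Atf4 itself rose from 192 ± 5.93 to 1279.8 ± 21.4 CPM. The lipoprotein receptor Vldlr fell by 0.67, and Cebpb was not called at -0.03 (adjusted p = 0.729).

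Cytosolic aminoacyl-tRNA synthetases, which charge tRNAs and include known ATF4 targets, gave 18 of 20 called higher, 14 at least 2-fold, with a median of 1.58. Yars and Aars, for tyrosine and alanine, rose by 2.75 and 2.75, and Qars, for glutamine, fell by 0.76. Genes of the unfolded protein response and chaperones of the endoplasmic reticulum gave 20 of 23 higher, 11 at least 2-fold, and 2 lower, with a median of 0.84. Hspa5, the lumenal chaperone BiP, had 868, 878 and 871 CPM in high glucose and 3908, 4086 and 4055 CPM in the mimic control. The groups lay 4.60-fold apart with no overlap (log2 change 2.20 ± 0.0521, adjusted p = 1.26e-18). The sensor kinase Ern1 rose by 2.52 and the chaperone partner Sdf2l1 by 2.44, while Crebrf and the mannosidase-like Edem1 fell by 0.88 and 0.72.

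**Figure D2:**
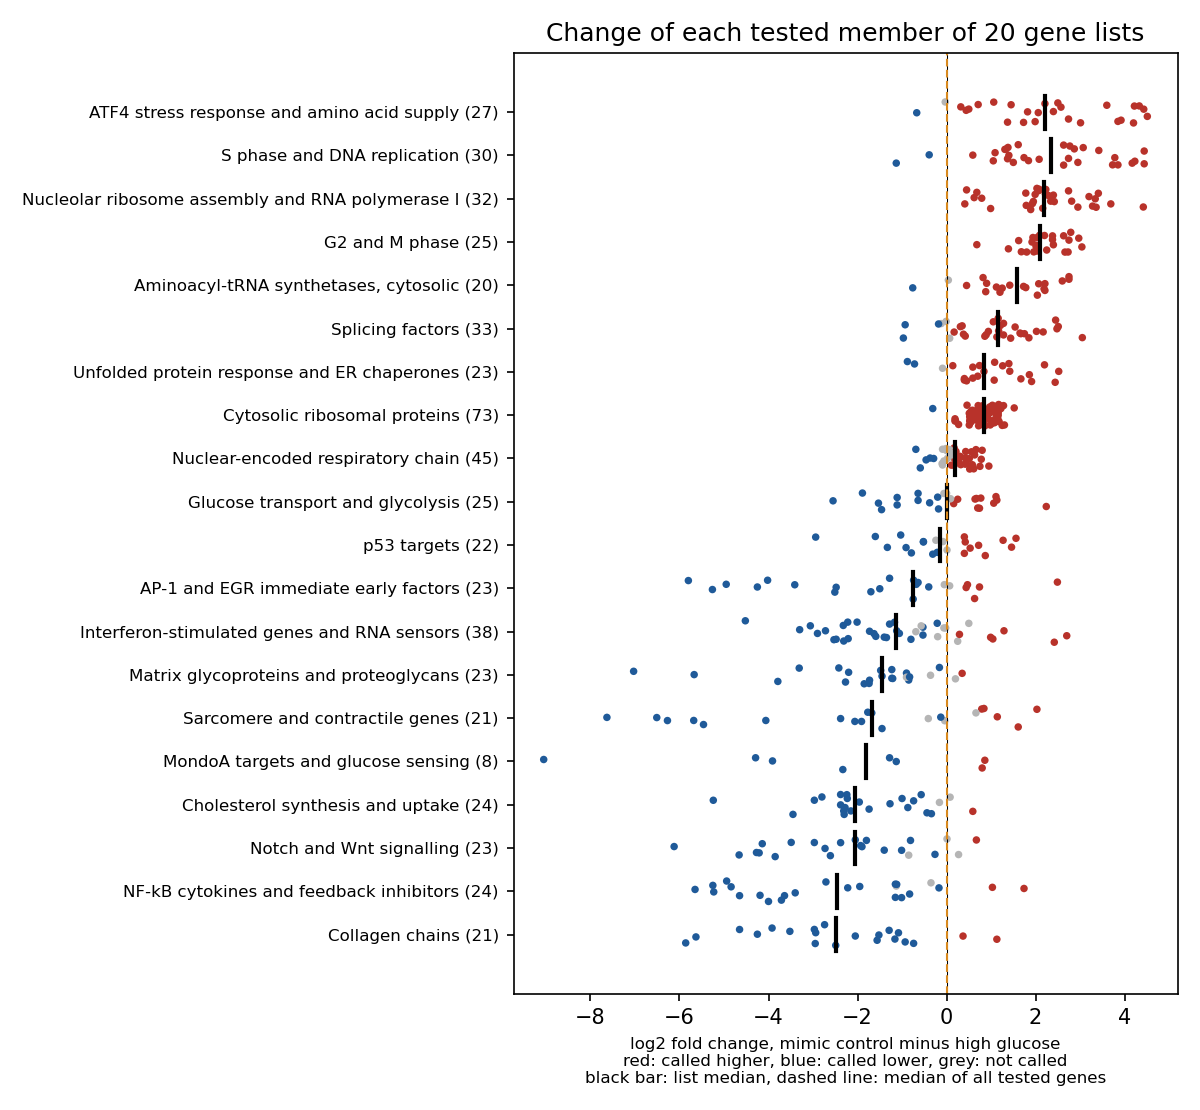
Log2 fold change (mimic control minus high glucose, x axis) of every tested member of 20 gene lists, with the number of tested members in brackets; red points were called higher, blue points lower, and grey points were not called. Black bars are list medians, which run from 2.36 for S phase genes to -2.49 for collagen chains, and the dashed line is the median of all tested genes.

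Txnip nearly disappeared. Thioredoxin-interacting protein restrains glucose uptake, and its gene is known to rise with glucose through the factor MondoA and its partner Mlx. Between untransfected vehicle and high glucose, Txnip was not called, at 386 ± 16.8 and 417 ± 9.20 CPM (log2 high glucose minus vehicle 0.11, edgeR adjusted p = 0.539). Txnip (chr3:96465267-96469201) had 407, 422 and 423 CPM in high glucose and 0.633, 0.763 and 0.958 CPM in the mimic control. All 3 mimic control libraries lay far below all 3 high glucose libraries. The log2 change was -9.05 ± 0.200 (adjusted p = 4.76e-19), a 531-fold fall. Its relative Arrdc4, also a known MondoA target, had 8.17, 7.69 and 6.39 CPM and then 0.316, 0.509 and 0.309 CPM, without overlap (log2 change -4.29 ± 0.341, adjusted p = 3.62e-10). Of 8 tested genes of the list, 6 were called lower, all at least 2-fold, and 2 higher, with a median of -1.80. Arrdc3, of the same arrestin-like family, fell by 3.91, the fructose metabolism enzyme Tkfc by 2.33 and Arrdc2 by 1.28. Mlxip, which encodes MondoA, rose by 0.86 and Mlx by 0.80.

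MondoA and Mlx are known to bind paired E-box-like motifs, whose full form is CACGTG. The RefSeq promoter windows of Arrdc4 and Txnip are shown because these genes fell most in the list (GRCm38.p6, chr7:68749189-68749488 on the minus strand for Arrdc4 and chr3:96557707-96558006 on the plus strand for Txnip, CACGTG in capitals).
Arrdc4: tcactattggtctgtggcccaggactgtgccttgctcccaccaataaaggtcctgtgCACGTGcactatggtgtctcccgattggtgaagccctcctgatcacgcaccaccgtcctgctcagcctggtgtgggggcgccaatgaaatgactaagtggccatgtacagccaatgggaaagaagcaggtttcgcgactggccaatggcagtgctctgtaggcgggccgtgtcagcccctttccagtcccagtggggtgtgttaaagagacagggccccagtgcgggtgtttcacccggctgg
Txnip: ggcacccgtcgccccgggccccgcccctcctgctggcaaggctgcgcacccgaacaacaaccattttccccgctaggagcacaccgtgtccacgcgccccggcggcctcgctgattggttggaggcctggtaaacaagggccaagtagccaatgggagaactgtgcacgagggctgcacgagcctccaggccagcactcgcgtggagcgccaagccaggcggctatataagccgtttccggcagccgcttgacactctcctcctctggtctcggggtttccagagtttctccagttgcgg
The Arrdc4 window held 1 match and the Txnip window none, which says only that these letters are not in that window. Only the full form was searched, so E-box-like motifs with other letters were not counted. The Txnip window holds a repeat of CACGAG, which differs from the full form in 1 letter. How often CACGAG stands in other windows was not counted, and these letters are not a measured binding site. CACGTG reads the same on both strands. It stood in 3 of 11 windows of the list (27.3%, in Arrdc4, Mlx and Mlxipl), against 7.15% of all 32851 windows. Of these genes only Arrdc4 fell, since Mlx rose and Mlxipl was not tested.

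Glycolysis did not move as a whole, with 11 of 25 tested genes called higher, 11 lower and a median of 0.00. Hk2, the inducible hexokinase, rose from 141 ± 5.74 to 666 ± 8.09 CPM, and the muscle phosphofructokinase Pfkm fell by 2.55 on the log2 scale. The neuronal-type glucose transporter Slc2a3 fell by 1.53 but was scarce, with 35 reads in high glucose and 11 in the mimic control. Gapdh was not called at 0.00. Hypoxia-inducible genes gave 5 of 19 higher and 9 lower. Ndrg1, a stress gene known to respond to low oxygen, had 272, 285 and 277 CPM and then 2450.2, 2322 and 2454 CPM, an 8.66-fold rise with no overlap, while Ankrd37 fell by 3.31.

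Cholesterol synthesis and uptake fell. These genes are known targets of SREBP2, which is released when sterol in the endoplasmic reticulum is low. Of 24 tested, 21 were called lower, 15 at least 2-fold, and 1 higher, with a median of -2.05. Farnesyl diphosphate synthase (Fdps), which makes the building block of squalene, had 11.5, 9.48 and 9.77 CPM in high glucose and 0.949, 0.954 and 0.896 CPM in the mimic control. The groups did not overlap (log2 change -3.45 ± 0.102, adjusted p = 3.79e-17). The last enzyme of the pathway, Dhcr7, fell by 2.97, and Lss, which closes the sterol rings, rose by 0.59. Fatty acid synthesis gave 13 of 14 called lower and 1 higher, with a median of -0.74, led by the desaturase Scd2 at -2.39 and the acyl-CoA synthetase Acsl3 at -2.38. Fatty acid oxidation was split, 6 of 23 higher and 11 lower. Pdk4, which blocks pyruvate entry into the citric acid cycle, fell by 3.03 and the carnitine transferase Cpt1a by 2.06. Its muscle form Cpt1b rose by 2.81 but was scarce, with 6 reads in high glucose and 41 in the mimic control.

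Collagens fell. Fibrillar collagens carry the load of connective tissue, and fibroblasts are their main known source in the heart. Of 21 tested chains, 19 were called lower, 17 at least 2-fold, and 2 higher, with a median of -2.49. Col3a1 (chr1:45350698-45395840) had 9251, 9666 and 8591 CPM in high glucose and 614, 598 and 605 CPM in the mimic control. No library overlapped (log2 change -3.92 ± 0.0543, adjusted p = 1.95e-21), and per transcript length the level went from 938 to 55.2 FPKM. Type VI collagen, which forms beaded filaments around cells, fell further. Col6a1 went from 624 ± 73.1 to 10.7 ± 0.315 CPM, also without overlap (log2 change -5.86 ± 0.0965, adjusted p = 9.4e-21). Its partner chains Col6a2 and Col6a3 fell by 5.63 and 4.25. Col14a1 and Col7a1 rose, by 1.13 and 0.37. The fibroblast marker sum given above moved with these genes, and Col1a1, Col1a2 and Col3a1 are in both lists.

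Other matrix genes fell with them. Enzymes that fold and crosslink collagen gave 19 of 24 lower and 3 higher, with the lysyl oxidases Loxl3 at -3.60 and Loxl4 at 1.23. Matrix glycoproteins gave 19 of 23 lower and 1 higher, with a median of -1.45. The basement membrane protein Nid2 fell by 5.67, osteopontin (Spp1) from 921 ± 66.2 to 66.6 ± 1.52 CPM and thrombospondin Thbs1 by 3.31. Efemp1, a fibulin, had 191 reads in high glucose and 1 in the mimic control, a ratio of 176 (95% counting interval 31.3 to 6999). Matrix proteases and inhibitors gave 14 of 21 lower and 4 higher, with stromelysin Mmp3 at -5.24 and Mmp19 at 1.67. Integrins and focal adhesion genes gave 14 of 22 lower and 3 higher, with the laminin receptor subunits Itgb4 at -4.15 and Itga7 at -3.09.

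Signals that act on matrix and cell fate fell too. In the TGF-beta, activin and BMP list, 17 of 26 genes were lower and 6 higher, with a median of -1.20. The ligand Tgfb3 had 246, 249 and 227 CPM and then 11.8, 11.8 and 13.4 CPM, without overlap (log2 change -4.28 ± 0.0602, adjusted p = 1.95e-21). The activin subunit Inhbb fell by 4.09 and the latency protein Ltbp2 by 3.41. Notch and Wnt signalling gave 19 of 23 lower and 1 higher, with a median of -2.05. Sfrp2, a Wnt antagonist with 26 reads in high glucose, had none in the mimic control and was at least 2.67-fold lower, and with it at that bound the median was -1.93. The receptor Notch3 fell by 3.85, the Notch target Hey1 by 4.14 and the Wnt antagonist Dkk2 by 4.66. EGF receptor genes gave 11 of 15 lower and 3 higher, with Egfr at -1.87 and the ligand betacellulin (Btc) at -3.82. Igfbp5, which binds insulin-like growth factors, fell from 3701 ± 251 to 149.7 ± 6.13 CPM.

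Mesenchymal genes gave 14 of 19 lower and 4 higher, with a median of -1.38. The serine protease Fap had 355 reads in high glucose and 3 in the mimic control, a ratio of 109 (95% counting interval 37.1 to 532). Pdgfra, a growth factor receptor of fibroblasts, fell by 3.98 and the homeobox factor Prrx1 by 3.21. Actin cytoskeleton genes that SRF and YAP are known to drive went more often the other way, with 14 of 25 higher, 6 lower and a median of 0.44. Smooth muscle actins Acta2 and Actg2 rose by 2.23 and 3.51, the stretch-responsive Ankrd1 from 195 ± 7.67 to 1186 ± 58.3 CPM, and skeletal actin Acta1 fell by 4.02. Of 6 smooth muscle markers tested, Acta2 among them, 3 were called higher and 3 lower. The sum over all 7 ran from 645.7 to 712.9 CPM in high glucose and from 443.6 to 462.6 CPM in the mimic control. Epithelial junction genes were split, 6 of 22 higher and 11 lower, with occludin (Ocln) at -4.95 and the desmosome protein Pkp2 at 4.50.

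Contractile genes of striated muscle fell. Of 21 tested, 13 were called lower, 12 at least 2-fold, and 5 higher, with a median of -1.68. Myh3, the embryonic myosin heavy chain (chr11:66969126-66993117), had 39.7, 43.0 and 33.9 CPM in high glucose and 0.230, 0.223 and 0.124 CPM in the mimic control. The groups were 198-fold apart and did not overlap (log2 change -7.63 ± 0.199, adjusted p = 5.52e-18). Titin (Ttn), the giant spring of the sarcomere, had 7.29, 8.70 and 10.6 CPM and then 0.144, 0.127 and 0.0618 CPM, without overlap (log2 change -6.27 ± 0.236, adjusted p = 1.72e-15). The troponins Tnnt3, Tnnt1 and Tnni1 of skeletal muscle fell by 6.51, 5.68 and 5.46. Among muscle transcription factors 9 of 15 were lower and 4 higher. Myogenin (Myog), which starts skeletal muscle differentiation, fell by 4.97, Myf6 by 3.66 and Mef2c by 2.80. Nppb, a natriuretic peptide gene known as a marker of heart muscle stress, rose from 0.111 ± 0.0523 to 2.20 ± 0.313 CPM. Smtnl1, a smoothelin-like muscle protein, had 6.87, 6.82 and 6.36 CPM in high glucose and no read in any mimic control library, which is at least 73.1-fold lower with the 3 reads that a count of 0 allows per library.

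**Figure D3:**
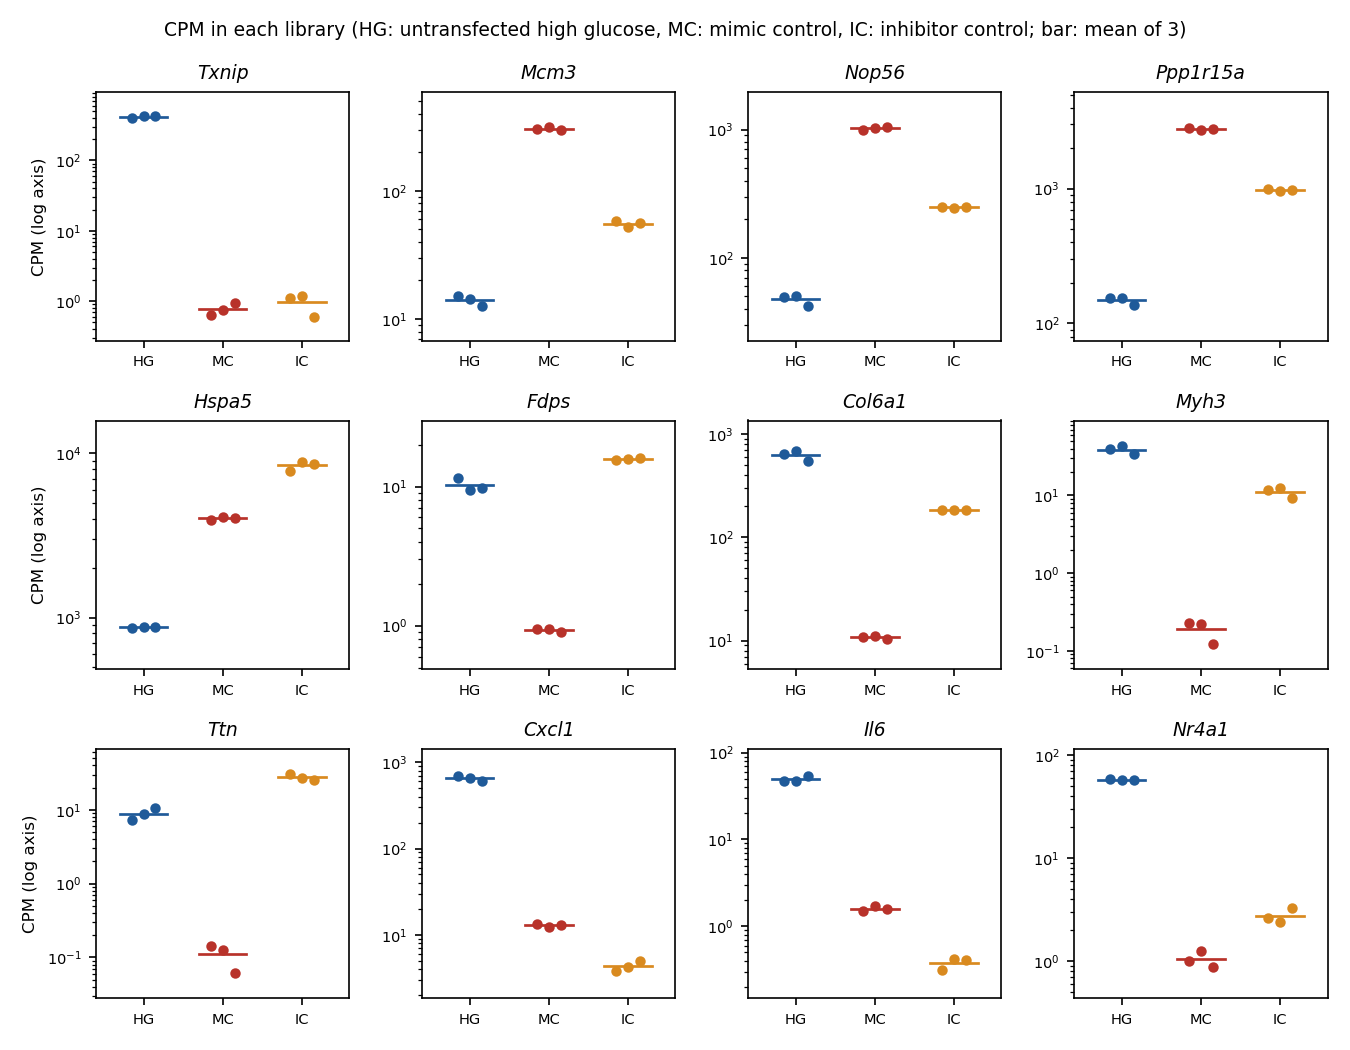
CPM (log axis) of 12 genes in each library of 3 groups, untransfected high glucose (HG), mimic control (MC) and inhibitor control (IC, a second transfected control), with a bar at the mean of 3 libraries. In each panel the 3 mimic control points lie apart from the 3 high glucose points, and the Ttn mean is 0.111 CPM in the mimic control and 27.9 CPM in the inhibitor control.

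Inflammatory genes fell. NF-kB switches on cytokines together with its own inhibitors. Of 24 tested, 20 were called lower, 18 at least 2-fold, and 2 higher, with a median of -2.47. Cxcl1, a neutrophil attractant, had 685, 647 and 610.2 CPM in high glucose and 13.5, 12.4 and 12.9 CPM in the mimic control. The groups were 50.1-fold apart with no overlap (log2 change -5.65 ± 0.113, adjusted p = 1.2e-19). Il6 had 47.1, 47.1 and 53.1 CPM and then 1.50, 1.72 and 1.58 CPM, also without overlap. The monocyte attractant Ccl2 fell by 5.25, Cxcl5 by 5.23 and the adhesion receptor Vcam1 by 4.65. Tnfaip2 rose by 1.74, and the rise of Tnf, by 1.03, lost its call under several alternatives. The change stayed between 0.92 and 1.08 without high glucose replicate 1, 2 or 3, with upper quartile scaling and with GC and length correction, and was 0.67 without mimic control replicate 2 and 0.66 and 0.24 by limma on FPKM. Immediate early factors, which cells switch on within minutes of serum or growth factors, gave 16 of 23 lower, 11 at least 2-fold, and 5 higher. The orphan receptor Nr4a1 had 58.0, 57.4 and 57.8 CPM and then 1.01, 1.24 and 0.865 CPM, without overlap (log2 change -5.80 ± 0.193, adjusted p = 2.42e-16). Fos fell by 5.26 and Egr1 by 4.95, while Myc, a factor known for driving ribosome genes, rose from 24.7 ± 1.34 to 139 ± 9.70 CPM.

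Interferon-stimulated genes and sensors of foreign RNA were more often lower than higher. Of 38 tested, 25 were called lower, 21 at least 2-fold, and 6 higher, with a median of -1.15. Mx1, an antiviral GTPase, had 1.62, 2.14 and 2.06 CPM and then 0.0575, 0.191 and 0 CPM, with no overlap (log2 change -4.52 ± 0.445, adjusted p = 1.04e-08). The antiviral gene Ifit3b fell by 2.90. The antiviral synthetase Oas2, called lower, had 14 reads in high glucose and 1 in the mimic control, a ratio of 12.9 (95% counting interval 1.97 to 546), and was not called by limma on FPKM. Ifi44 rose from 0.365 ± 0.0123 to 2.40 ± 0.305 CPM, and Isg15 was not called at -0.06 but was called lower with GC and length correction (-0.30) and by limma on FPKM (-0.22 and -0.21 with pseudocounts of 0.1 and 1). In MHC class I presentation 9 of 14 were lower and 2 higher. The peptide loading factor Tapbp fell from 166 ± 7.11 to 13.4 ± 0.463 CPM, while Nlrc5, a coactivator of these genes, rose by 2.36.

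Genes with a site for the study's microRNA were called in shares near those of all genes with a 3′ UTR, and neither group had received the mimic. Of all 685 tested genes with an 8-base site, 316 (46.1%) were lower and 266 (38.8%) higher, beside 42.6% and 39.7% of the 12899 tested genes with an annotated 3′ UTR. The mature sequence is shown with its seed (bases 2 to 8) in capitals, above 8-base sites for it, in capitals with 11 bases on each side, in the 3′ UTRs of genes picked because they fell (GRCm39, chr19:29938699-29938706 on the plus strand, exon 8 of 8 for Il33 and chr10:5776598-5776605 on the minus strand, exon 5 of 5 for Rgs17). The control duplex is not described by sequence in the sources used here.
miR-200a-3p: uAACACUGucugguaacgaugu
Il33: attactacaatCAGTGTTAttgattaaaat
Rgs17: taagtccgaagCAGTGTTAgcttggctatc
Il33, an alarm cytokine, fell from 148 ± 10.2 to 3.03 ± 0.349 CPM, and Rgs17, a regulator of G-protein signalling, by 3.74. Zeb1, the best known target, had 129, 145 and 146 CPM in high glucose and 44.6, 42.0 and 45.1 CPM in the mimic control, without overlap (log2 change -1.68 ± 0.0638, adjusted p = 2.09e-15). Zeb2 lay close, at 248, 275 and 304 CPM and 241, 247 and 236 CPM (log2 change -0.19 ± 0.0656, adjusted p = 0.0114), and it was not called without high glucose replicate 3 (-0.12) or mimic control replicate 3. Of 13 published targets tested, 9 were lower and 3 higher. The share called among all genes was 78.9%. MicroRNA processing genes were split, 7 of 16 higher and 7 lower, with the exporter Xpo5 at 1.94 and the silencing cofactor Tnrc6b at -1.73.

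Other genes with large rises are in none of these groups. B4galnt2, a glycosyltransferase, had 1 read in high glucose and 948 in the mimic control, a ratio of 1027 (95% counting interval 184 to 40610.0). Tenm2, a neuronal adhesion protein, had 0.426, 0.347 and 0.379 CPM and then 62.9, 59.6 and 62.7 CPM, without overlap (log2 change 7.32 ± 0.112). Avil, an actin-severing protein, had 7.43, 8.24 and 7.52 CPM and then 872, 796 and 821 CPM, a 107-fold rise with no overlap (adjusted p = 3.37e-21). Dnmt3l, a cofactor of germline DNA methylation, rose from 0.103 ± 0.0441 to 8.78 ± 0.464 CPM and the siderophore-binding Lcn2 by 5.40. In the other direction, Hdc, the histamine-forming enzyme, fell from 48.9 ± 2.22 to 0.253 ± 0.0357 CPM, and Mgp, an inhibitor of calcification, from 78.5 ± 6.12 to 0.627 ± 0.0758 CPM.

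Imprinted growth genes gave 8 of 14 lower and 1 higher. H19, a maternally expressed noncoding RNA, had 2412, 2477 and 2012 CPM and then 27.5, 31.7 and 31.0 CPM, with the groups 76.6-fold apart and no overlap. Peg3 and Igf2 fell by 2.89 and 2.05, and the zinc-finger gene Plagl1 rose by 4.96. Among nuclear RNAs, the X-inactivation RNA Xist had 19.1, 35.3 and 37.9 CPM and then 121, 117 and 117 CPM, Malat1 fell by 1.07, and Rn18s was not called at -0.02 (adjusted p = 0.929). Clock genes were split, 7 of 19 higher and 9 lower, with the repressors Ciart and Cry1 at 4.67 and 2.37 and the output gene Dbp at -2.51. Targets of NRF2, the oxidant-responsive factor, gave 17 of 27 lower and 9 higher, with the quinone reductase Nqo1 at -3.24 and the transferrin receptor Tfrc at 2.54. Proteasome subunits gave 24 of 31 higher and 4 lower, with a median of 0.43, autophagy and lysosome genes 19 of 32 higher and 9 lower, with 0.20, and nuclear respiratory chain genes 27 of 45 higher and 5 lower, with 0.19 and none at least 2-fold.

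A second transfected control, the negative control of the miR-200a-3p inhibitor, carried the same genotype and treatment labels, which lets the 2 controls be set side by side. Both comparisons with high glucose share the same 3 high glucose libraries, so each is given by its own values and the difference between the controls was tested directly. Inhibitor control against high glucose gave 11977 calls (79.5%). Inhibitor control against mimic control gave 11181 (74.2%), 5796 higher (38.5%) and 5385 lower (35.7%). Of the 5954 genes called at least 2-fold from high glucose in the mimic control (39.5%), 1419 (23.8%) did not pass the test of the difference. For 3782 (63.5%) the inhibitor control differed from the mimic control in the direction of high glucose, and for 753 in the direction away from it. The 3782 include genes that passed to the other side of high glucose, such as Neat1 (log2 change -1.89 in the mimic control and 3.76 in the inhibitor control). They are therefore not a count of genes nearer to high glucose in the inhibitor control. The 5954 genes were picked through the mimic control libraries, which also enter the test between the controls. That choice by itself tilts the split toward high glucose. No such split was made for genes picked through the inhibitor control.

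**Figure D4:**
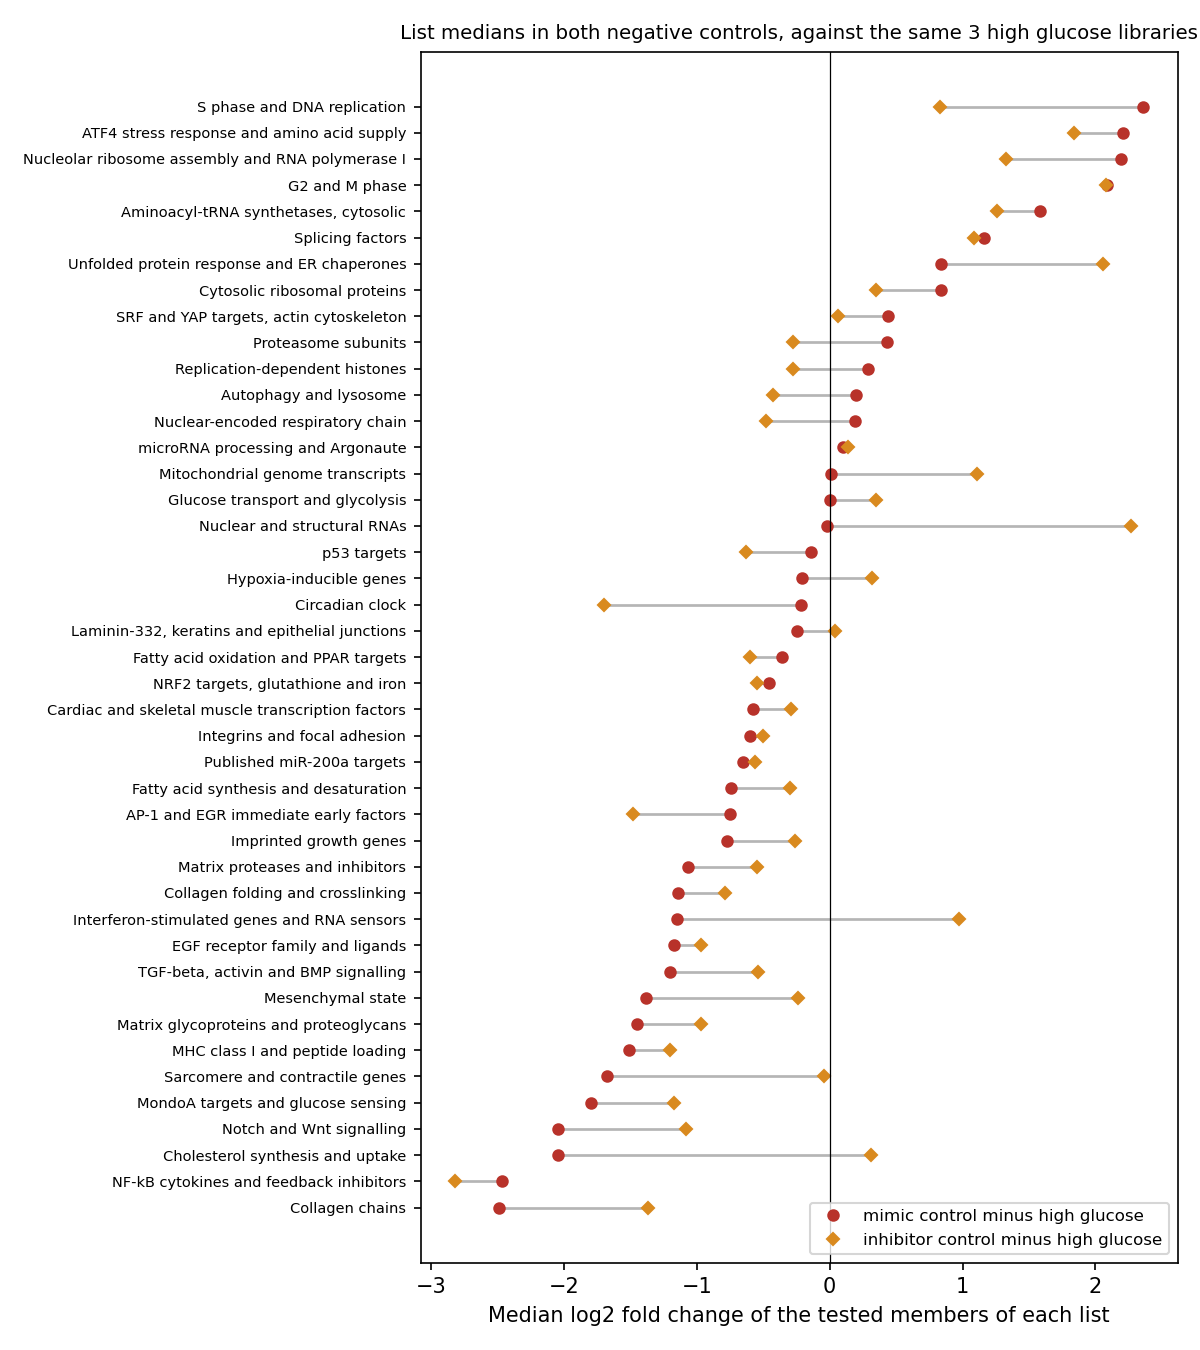
Median log2 fold change (x axis) of the tested members of each gene list in the mimic control (red circles) and in the inhibitor control (orange diamonds), each against the same 3 high glucose libraries, so that the sets of points are not independent. The S phase and collagen medians keep their sign in both controls, while the interferon median is -1.15 in the mimic control and 0.97 in the inhibitor control.

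Txnip stood at 0.785 ± 0.164 CPM in the mimic control and 0.961 ± 0.309 CPM in the inhibitor control, which did not pass the test of the difference (log2 inhibitor control minus mimic control 0.30 ± 0.392, adjusted p = 0.501). S phase genes rose in both controls but differed in size, with a median of 2.36 in the mimic control and 0.83 in the inhibitor control, and 29 of 30 were called lower in the inhibitor control. Mcm3 stood at 55.3 ± 2.72 CPM there. Mitotic genes had medians of 2.09 and 2.08, and 13 of 25 were called lower and 7 higher in the inhibitor control than in the mimic control. Mki67, on the higher side, stood at 327 ± 4.32 CPM. For endoplasmic reticulum chaperones and the unfolded protein response 20 of 23 were called higher in the inhibitor control, with Hspa5 at 8439 ± 512 CPM.

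The controls parted on sterols and interferon. All 24 cholesterol genes were called higher in the inhibitor control than in the mimic control, against 38.5% of all genes, and their median against high glucose was 0.31 in place of -2.05. Fdps stood at 10.3 CPM in high glucose, 0.933 CPM in the mimic control and 15.8 CPM in the inhibitor control. Of 38 interferon genes, 32 were called higher in the inhibitor control than in the mimic control and none lower. The antiviral gene Ifit3 had 4.40 ± 0.262 CPM in high glucose, 0.758 ± 0.0843 in the mimic control and 14.5 ± 1.20 in the inhibitor control. Collagens were below high glucose in both, with medians of -2.49 and -1.37, and 14 of 21 were called higher in the inhibitor control and 5 lower. Col6a1 stood at 184 ± 1.70 CPM there. Cxcl1 and Il6 were lower still in the inhibitor control, at 4.34 ± 0.570 and 0.378 ± 0.0601 CPM (log2 differences -1.57 and -2.07, adjusted p = 1.78e-09 and 7.66e-08). Rn18s took 0.0841% to 0.136% of the reads in the inhibitor control, below both other groups, and its part in these differences was not tested.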

How the data were processed

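RNA from 6 libraries (3 of each group) was sequenced as 150-nt paired reads after stranded mRNA library preparation. Per the labels' protocols, the authors dropped reads with more than 2 N bases, trimmed with FASTX-Toolkit 0.0.13, dropped reads under 16 nt, aligned to GRCm39 with HISAT2 allowing 4 mismatches, and counted uniquely mapped reads. The deposited read counts per gene were tested as they stood, and the authors' FPKM, calculated from those reads per the labels' protocols, were used for levels per length and as an alternative. The sources used here name no counter, strand setting or annotation, so reads of a gene and an overlapping antisense gene may not have been told apart, and genes with near-identical copies are uncertain. DESeq2 is also named in the submitters' processing notes.

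Counts of all 18 libraries were fitted with 1 term per group by edgeR 4.0.16 (R 4.3.3; TMM scaling, filterByExpr with a minimum count of 10, quasi-likelihood test, 12 residual degrees of freedom), with Benjamini-Hochberg adjustment and a threshold of 0.05. The depth gave a limit of 3 reads, 0.0812 to 0.0954 CPM, for a gene with no read, and intervals and limits cover counting error only. Gene positions, transcripts and 3′ UTRs were taken from GENCODE on GRCm39, and promoters and the microRNA from RefSeq on GRCm38.p6. A symbol with several gene models was read from the model with the most reads. Alternatives used DESeq2 1.42.0, limma 3.58.1 on log2(FPKM + pseudocount) and those given in the closing section. Replicate numbers did not pair the libraries.

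The comparison, the gene lists and the tests were chosen with earlier results of these data known. Named genes are up to 15 with the largest rise and fall at 5 CPM or more, up to 8 each at 50 CPM or more in both groups, a fixed set of study genes, up to 6 called and 2 uncalled members per list, and up to 6 lower genes with a miR-200a-3p site. Members named as exceptions to a list, together with Atf4, Myc, Mlx, Mlxip, Ifit3, the collagen genes shared with the fibroblast markers and the motif-bearing promoters' genes, were chosen after their values were seen.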

Additional observations from a re-analysis of the deposited data

Results flagged for a closer look

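Of the 15074 genes tested, 92 were called at least 2-fold from high glucose in opposite directions in the mimic control and the inhibitor control. Predicted gene models were left out of this count by their names. The difference between the controls was also called for all 92 (edgeR, 3 libraries in each group). Opposite changes of that size already set the controls apart, so this call adds little. These 92 genes are listed because the same contrast with high glucose turned round between groups that both received a negative control. Of them 85 were lower and 7 higher in the mimic control. No explanation for these genes was tested.

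The genes named here had a mean of 5 CPM or more in high glucose or either control, with pseudogenes left aside. Among these, Ttn, the sarcomere spring, had the largest difference, 7.92 on the log2 scale (inhibitor control minus mimic control). It had 8.88 ± 1.68 CPM in high glucose, 0.111 ± 0.0433 in the mimic control and 27.9 ± 2.45 in the inhibitor control. The noncoding RNA Dnm3os differed by 5.89, but its change from high glucose to the mimic control, from 0.224 ± 0.0506 to 0.0932 ± 0.0558 CPM on 24 and 9 reads, was under 2-fold without mimic control replicate 1 (-0.81) and -0.03 by limma on log2(FPKM + 1), and was not called in either or without high glucose replicate 3. The nuclear RNA Neat1 differed by 5.65, from 20.2 ± 1.59 CPM in the mimic control to 1016 ± 52.8 CPM in the inhibitor control. The imprinted gene Zim1 differed by 5.41, the chemokine Cxcl12 by 4.69, Ms4a4d by 4.56, the smooth muscle gene Lmod1 by 4.53, Ifit3 by 4.25 and the collagen chain Col12a1 by 3.93. In the other direction, the transglutaminase Tgm2 differed by -3.01, with 69.1 ± 1.85 CPM in high glucose, 173 ± 5.10 in the mimic control and 21.4 ± 1.02 in the inhibitor control, Stmn4 by -2.73 and Fam111a by -2.44.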

How the results depend on the processing

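Over 17 alternatives, the number of genes called stayed within 1.5 times in both comparisons. The number at least 2-fold from high glucose did not with limma on log2(FPKM + 1), which gave 2888 against 5954 (1120 higher and 1768 lower), since the pseudocount shrinks the change of low genes. Between the controls, 2655 genes were at least 2-fold higher and 1240 lower in the inhibitor control, against 681 and 409 with that pseudocount and 2217 and 703 with 0.1. With a pseudocount of 0.1 the median of all genes moved to -0.12, and the share of calls that were higher ran from 42.4% to 49.9% over all alternatives. Leaving out 1 library of either compared group gave 11613 to 11678 genes called and 5964 to 6008 at least 2-fold, and 10847 to 11336 called between the negative controls. Same-numbered libraries of the groups deviated together with correlations of -0.00936, -0.00298 and 0.00105, so the numbers were not taken as pairs. With the replicate block 11844 genes were called, 5937 at least 2-fold, and 11146 between the controls, and with GC and length correction added to the replicate block 11940, 5832 and 11157. DESeq2 called 11553 genes.

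Of 171 named genes, 163 kept call and direction in every alternative that gave a value. Cebpb, not called at -0.03, was called higher at 0.38 with GC and length correction, with or without the replicate block, and lower at -0.19 by limma on FPKM with either pseudocount, and Gapdh, at 0.00, was called lower at -0.16 by limma on FPKM with either pseudocount. The cause was not tested for either gene. Isg15, Rpl29, Tnf and Zeb2 changed as given in the report. Dnm3os (-1.26) was not called without mimic control replicate 1 (-0.81), without high glucose replicate 3 (-1.10) or by limma on log2(FPKM + 1) (-0.03). Oas2, a low gene, was not called by limma on FPKM. The macrophage markers called went from 2 to 5 with the compared groups fitted alone or without mimic replicate 2, and the replication-dependent histone genes called from 9 to 5 without mimic control replicate 3. Medians of 9 lists near 0 or with few tested members changed sign under some alternative, among them glycolysis, microRNA processing and the cardiomyocyte markers.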
